A study of Arabidopsis thaliana with 16 samples.

Results

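Transcript levels of 9 Arabidopsis genes for alternative respiratory enzymes were measured in light-grown and dark-grown cell suspension cultures. The set holds the 5 alternative oxidases (AOX1A, AOX1B, AOX1C, AOX1D and AOX2), the plastid terminal oxidase PTOX, and 3 alternative NADH dehydrogenases (NDA1, NDA2 and NDB2). Members were chosen by locus identifier, and all 9 were found among the 28598 genes of the count table. No cut-off on measured values defined the set, but earlier results of these data were known when it was chosen.

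RNA was sequenced from 8 libraries of a Col-0 cell line derived from leaves, 4 grown under constant light and 4 in foil-covered flasks. Both groups were shaken at 23 °C in medium with 3% sucrose and 2,4-D, an auxin analogue, and were subcultured every 7 days. Dark-grown cells were adapted for 2 weeks, and every library is labelled as taken at 16 h. The treatment notes mention light cells taken at 5 days as well, and do not say which libraries these would be. Cells fed with sucrose and auxin in suspension are a single line and do not stand for a leaf. The sources describe 8 replicate cultures in one place and cultures kept in duplicate in another, so the p-values measure the spread between these libraries, which may in part be technical.

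In plant mitochondria, electrons can reach oxygen by a route that bypasses the proton-pumping complexes. Alternative NAD(P)H dehydrogenases pass electrons from NADH or NADPH to ubiquinone without pumping protons, with the NDA proteins on the matrix side and NDB proteins on the outer side of the inner membrane. Alternative oxidases then pass electrons from ubiquinol straight to oxygen, and AOX1A is well known in Arabidopsis as a gene that responds when mitochondria are disturbed. PTOX, also named IMMUTANS, is a related oxidase of plastids that takes electrons from plastoquinol and is needed for carotenoid synthesis in developing chloroplasts.

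The libraries held 18363149 to 37813411 counts on genes, and 3 counts corresponded to 0.0779 to 0.159 CPM (counts scaled to library size). The growth labels were matched by marker genes of green tissue, since all 4 tested mesophyll markers were lower in the dark by edgeR's quasi-likelihood test, among them the Rubisco small subunit gene RBCS1A (log2 fold change -6.09, adjusted p = 0.00071). The summed level of the 5 mesophyll markers was 258 to 512 CPM in the light and 1.91 to 16.1 CPM in the dark. The remaining marker of the 5, a carbonic anhydrase gene, had too few counts to be tested. It varied unlike the other 4, with a correlation with AOX1D, on log2(CPM + 0.5), of 0.53 against -0.75 to -0.69. The match therefore rests on the 4 tested markers. Markers of seed and pollen were at or near 0 in every library. Single markers of other cell types were detected at low levels, with the guard cell gene MYB60 at 1.06 to 6.74 CPM, the root hair gene COBL9 at 3.72 to 9.71 CPM and the vascular gene XCP1 at 1.10 to 4.56 CPM, while FAMA, EXPA7 and APL were at or near 0.

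The 5 alternative oxidase genes are similar in sequence, and a stretch of 30 coding bases is shown because it bears on whether 50 bp reads could be told apart. The stretches are given in the coding direction from the TAIR10.1 assembly, with capitals at the bases that differ from AOX1A. They lie at chr3:7907788-7907817 for AOX1A, chr3:7904750-7904779 for AOX1B, chr3:10229892-10229921 on the reverse strand for AOX1C, chr1:11668033-11668062 on the reverse strand for AOX1D and chr5:25684726-25684755 on the reverse strand for AOX2.
AOX1A: aggagatatggatgtcgagctatgatgctt
AOX1B: aggCgGtaCggatgCAgagcAatgatgctA
AOX1C: aggagGtatggTtgCcgagcGatTatgctA
AOX1D: aggaAGCaCATGtgCcATgcGatgTtgctA
AOX2: agACgatatggatgCAgagcGatgatgctA
AOX1B, AOX1C and AOX2 differed from AOX1A at 7, 6 and 6 of these bases, and AOX1D at 13. Over the aligned coding sequence, 79.0% of bases were identical to AOX1A in AOX1C, 77.7% in AOX1B, 68.5% in AOX1D and 67.1% in AOX2. The longest coding run shared with AOX1A was 34 bases, in AOX1C, which is shorter than a 50 bp read. No window of 50 exon bases of any of the 9 members occurred elsewhere in the genome, and no annotated gene overlapped one of them. AOX1A and AOX1B lie in tandem on chromosome 3, at 7906521 to 7908746 and 7904097 to 7905576, with 944 bases between them. AOX1A, AOX1B, AOX1C and AOX2 each have an exon of one same length that AOX1D lacks.

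The first question was whether any of these genes differed between the growth conditions. No member passed an adjusted p of 0.05 by edgeR's quasi-likelihood test, against 10.0% of the 19129 genes tested. In the dark, 3.69% of genes were called higher and 6.31% lower. Of the 9 members, 7 were tested and AOX1B and AOX2 had too few counts. At an unadjusted p under 0.05 there was 1 member, AOX1D, against 25.2% of all genes. DESeq2 likewise called 0 members, with 1 at an unadjusted p under 0.05, against 15.8% of genes called. The median log2 fold change, dark against light, was 0.10 over the 7 tested members and 0.0039 over all genes, and its median size was 0.0986 and 0.232. None of the 7 tested members had light and dark libraries that did not overlap in CPM, against 16.6% of genes (6.50% higher and 10.1% lower in the dark).

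**Figure D1:**
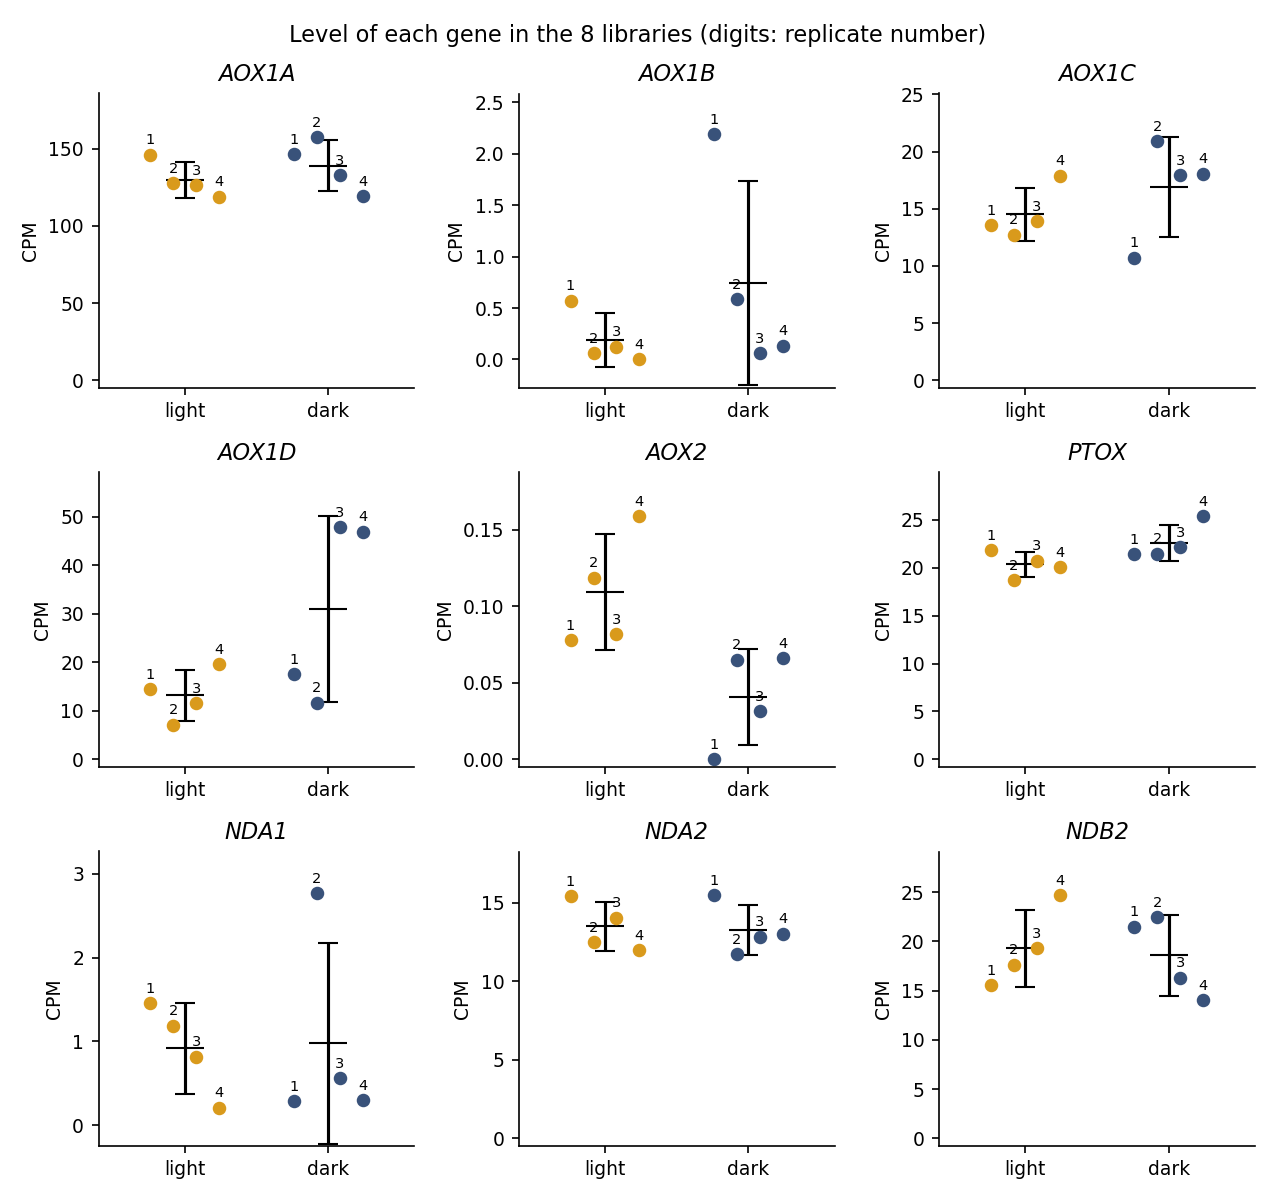
Level of each of the 9 genes in the 4 light-grown and 4 dark-grown libraries in CPM, each panel with its own linear axis. Points are libraries numbered by replicate, and the black bar gives the mean with its SD; AOX1D in dark libraries 3 and 4 lies above every other library of that gene, at 47.9 and 46.9 CPM.

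AOX1A (AT3G22370), the main stress-responsive alternative oxidase of Arabidopsis, was by far the most abundant member. Its level was 146, 128, 126 and 119 CPM in light libraries 1 to 4 and 146, 157, 133 and 119 CPM in dark libraries 1 to 4. The groups overlapped over nearly their whole ranges, and the highest and lowest of the 8 libraries differed by 1.32-fold. The mean was 130 ± 11.5 CPM in the light and 139 ± 16.6 CPM in the dark (SD, n = 4). The log2 fold change was 0.10 (SE 0.11, edgeR adjusted p = 0.640), and its 95% interval of -0.15 to 0.35 spans 0.901-fold to 1.27-fold. Among all genes, 21.4% had a smaller spread between libraries of the same group. Per kilobase of exon, AOX1A stood at 73.5 ± 6.52 CPM in the light and 78.7 ± 9.39 CPM in the dark, above 95.3% of the 27636 genes with a gene model.

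AOX1D (AT1G32350), a second mitochondrial alternative oxidase, varied most between libraries of the well-counted oxidases. Light libraries 1 to 4 held 14.5, 7.16, 11.6 and 19.6 CPM. Dark libraries 1 to 4 held 17.5, 11.6, 47.9 and 46.9 CPM. Dark libraries 3 and 4 stood above all others, whereas dark libraries 1 and 2 lay within the range of the light libraries. The mean was 13.2 ± 5.20 CPM in the light and 31.0 ± 19.1 CPM in the dark (SD, n = 4). The log2 fold change of 1.24 (SE 0.50, 95% interval 0.10 to 2.38) had an edgeR p of 0.0367 before adjustment and 0.166 after it. DESeq2 gave an adjusted p of 0.0505, and the two-sided exact permutation p was 0.171, where 4 libraries against 4 cannot go below 0.029. The within-group SD of log2 CPM was 0.84, larger than that of 90.4% of genes.

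Leaving out 1 library at a time gave log2 fold changes of 0.95 to 1.51 for AOX1D, with edgeR adjusted p of 0.056 to 0.357. With the 4 libraries that the study paired with chromatin digestion (light 2 and 3, dark 3 and 4), the edgeR log2 fold change was 2.35 with an adjusted p of 0.0021, in a fit that called 27.8% of 19365 genes. This choice moved both groups, since light 2 and 3 had the lowest AOX1D levels of the light libraries and dark 3 and 4 the highest of the dark libraries. Light 2 and 3, and dark 3 and 4, were also the pairs of libraries most alike within their conditions. Between their counts the mean chi-square per gene, a squared difference relative to sampling noise, was 19.7 and 24.1. It was 47.2 to 110 for the other pairs. AOX1C was called in that fit as well (log2 fold change 0.43, adjusted p = 0.0469). The summed level of 4 genes of dividing cells was lowest in dark libraries 3 and 4, at 151 and 134 CPM, against 192 to 353 CPM in the light libraries and 241 and 246 CPM in dark libraries 1 and 2. The part of this difference in the AOX1D values was not tested.

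AOX1C (AT3G27620) was expressed at a level similar to AOX1D in the light. It held 13.6, 12.7, 13.9 and 17.9 CPM in light libraries 1 to 4 and 10.7, 20.9, 17.9 and 18.1 CPM in dark libraries 1 to 4. Dark library 1 was the lowest of all 8 and dark library 2 the highest. The mean was 14.5 ± 2.30 CPM in the light and 16.9 ± 4.34 CPM in the dark (SD, n = 4), with a log2 fold change of 0.22 (SE 0.21, edgeR adjusted p = 0.570, 95% interval -0.25 to 0.69).

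AOX1B (AT3G22360), the tandem neighbour of AOX1A, was above 4 counts in only 3 of the 8 libraries. Its counts were 22, 2, 3 and 0 in light libraries 1 to 4 and 69, 18, 2 and 4 in dark libraries 1 to 4. Most of its counts thus came from library 1 of each condition and dark library 2, while AOX1A 944 bases away varied little. The exact permutation p for AOX1B was 0.229.

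AOX2 (AT5G64210), known in Arabidopsis as an oxidase gene of seeds, had 3, 4, 2 and 3 counts in light libraries 1 to 4 and 0, 2, 1 and 2 in dark libraries 1 to 4. With 12 counts in the light and 5 in the dark, every library lay at or near the floor of 3 counts and no fold is given. The groups did not overlap in CPM, but in counts they did, since light library 3 and dark libraries 2 and 4 each had 2. The exact permutation p on CPM was 0.029, the smallest possible. It became 0.057 without dark library 3 and 0.086 without light library 4 or without dark library 1.

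Summed over the 5 alternative oxidases and scaled to exon length, the level was 103, 86.6, 89.6 and 93.7 CPM per kilobase in light libraries 1 to 4 and 104, 113, 120 and 112 CPM per kilobase in dark libraries 1 to 4. The mean was 93.2 ± 7.05 in the light and 112 ± 6.48 in the dark (SD, n = 4), 1.20-fold higher. The groups did not overlap, although the lowest dark library and the highest light library were close. This sum was formed from the chosen genes and has no test. Without AOX1D the groups overlapped, at 80.9 to 93.4 CPM per kilobase in the light and 81.1 to 105 CPM per kilobase in the dark, and the difference shrank from 19.0 to 7.38.

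AOX1A made up most of that sum in every library. Its share was 80.5%, 83.5%, 79.8% and 72.0% in light libraries 1 to 4, and 79.6%, 79.0%, 62.7% and 60.4% in dark libraries 1 to 4. AOX1D held 26.1% and 27.5% in dark libraries 3 and 4 and between 5.41% and 13.7% elsewhere. The log2 ratio of AOX1A to AOX1D within a library was 3.33 ± 0.61 in the light and 2.38 ± 1.17 in the dark, and the difference of -0.95 did not pass an exact permutation test (two-sided p = 0.257, n = 4 per group, 0.771 after Benjamini-Hochberg adjustment over 3 ratios).

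**Figure D2:**
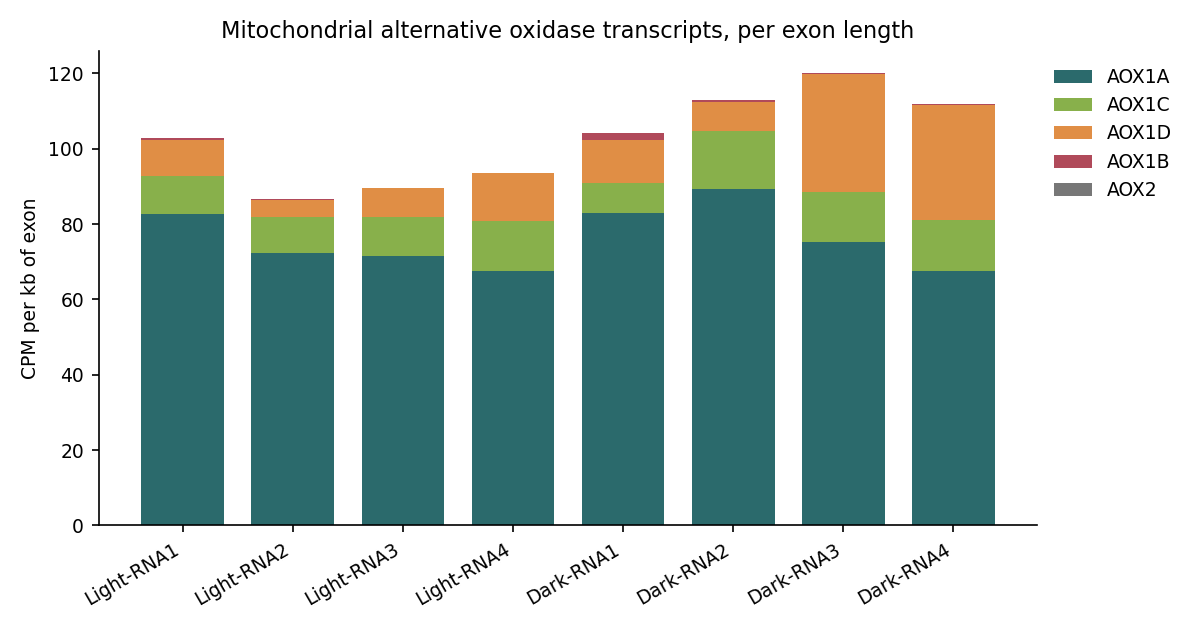
Stacked level of the 5 alternative oxidase transcripts in each of the 8 libraries, in CPM per kilobase of exon. AOX1A forms the largest block in every bar, and AOX1D reaches 26.1% and 27.5% of the bar in dark libraries 3 and 4.

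PTOX (AT4G22260), the oxidase of plastids, was among the least variable members. It held 21.9, 18.7, 20.8 and 20.1 CPM in light libraries 1 to 4 and 21.4, 21.5, 22.2 and 25.4 CPM in dark libraries 1 to 4. Only light library 1 lay inside the dark range. The mean was 20.3 ± 1.33 CPM in the light and 22.6 ± 1.88 CPM in the dark (SD, n = 4), with a log2 fold change of 0.15 (SE 0.099, edgeR adjusted p = 0.391, 95% interval -0.07 to 0.38). The exact permutation p was 0.086 with all libraries. Without light library 1 the groups no longer overlapped and it was 0.029, the smallest possible. Over the settings tried it ran from 0.029 to 0.314.

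Carotene desaturases pass their electrons to plastoquinone, which PTOX oxidises. Of 4 desaturation and isomerisation genes, 1 was called lower in the dark and 0 higher, against 6.31% and 3.69% of all genes. Their median log2 fold change was -0.29, against 0.0039 over all genes. The zeta-carotene desaturase gene ZDS was the one that passed, at 40.8 ± 2.37 CPM in the light and 32.8 ± 1.21 CPM in the dark (log2 fold change -0.32, SE 0.080, edgeR adjusted p = 0.0403). It lost the call without dark library 3 or 4 and without light library 1, 2 or 3, and also with a likelihood ratio test or no filter on low counts. The phytoene desaturase gene PDS, with non-overlapping groups, had a log2 fold change of -0.26 and an edgeR adjusted p of 0.0712.

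None of the 3 alternative dehydrogenases differed between the conditions by more than the spread between libraries. NDB2 (AT4G05020), an external enzyme known to be induced together with AOX1A by stress in Arabidopsis, held 15.5, 17.6, 19.3 and 24.7 CPM in light libraries 1 to 4 and 21.5, 22.5, 16.3 and 14.0 CPM in dark libraries 1 to 4. Its highest and lowest values lay in light library 4 and dark library 4. The mean was 19.3 ± 3.91 CPM in the light and 18.6 ± 4.07 CPM in the dark (SD, n = 4), with a log2 fold change of -0.05 (SE 0.20, edgeR adjusted p = 0.905, 95% interval -0.50 to 0.39). Across the 8 libraries, which share the same growth conditions in sets of 4, NDB2 and AOX1A had a Pearson correlation of log2 CPM of 0.20. The log2 ratio of NDB2 to AOX1A differed by -0.15 between the conditions (exact permutation p = 0.543, 0.814 after adjustment over 3 ratios).

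NDA2 (AT2G29990), an internal dehydrogenase, was the most even of the 3. It held 15.4, 12.5, 14.1 and 12.0 CPM in light libraries 1 to 4 and 15.5, 11.7, 12.8 and 13.0 CPM in dark libraries 1 to 4. Both groups covered the same range, with means of 13.5 ± 1.56 and 13.3 ± 1.58 CPM (SD, n = 4). The log2 fold change was -0.03 (SE 0.13, edgeR adjusted p = 0.932), with a 95% interval of -0.32 to 0.27.

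NDA1 (AT1G07180), the other internal dehydrogenase, is known from Arabidopsis leaves as a gene regulated by light. Its counts were 56, 40, 20 and 4 in light libraries 1 to 4 and 9, 85, 18 and 9 in dark libraries 1 to 4. In CPM these were 1.45, 1.19, 0.817 and 0.212 in the light and 0.286, 2.77, 0.565 and 0.298 in the dark. Dark library 2 was the highest and light library 4 the lowest, 13.1-fold apart. The log2 fold change of 0.07 had an SE of 0.83 and a 95% interval of -1.84 to 1.97 (edgeR adjusted p = 0.973), which spans 0.28-fold to 3.91-fold. The within-group SD of log2 CPM was 1.26, larger than that of 96.5% of genes, and the log2 ratio of NDA1 to NDA2 differed by -0.10 between the conditions (exact permutation p = 0.886). Leaving out dark library 2 turned the log2 fold change to -1.28, with an edgeR adjusted p of 0.221.

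**Figure D3:**
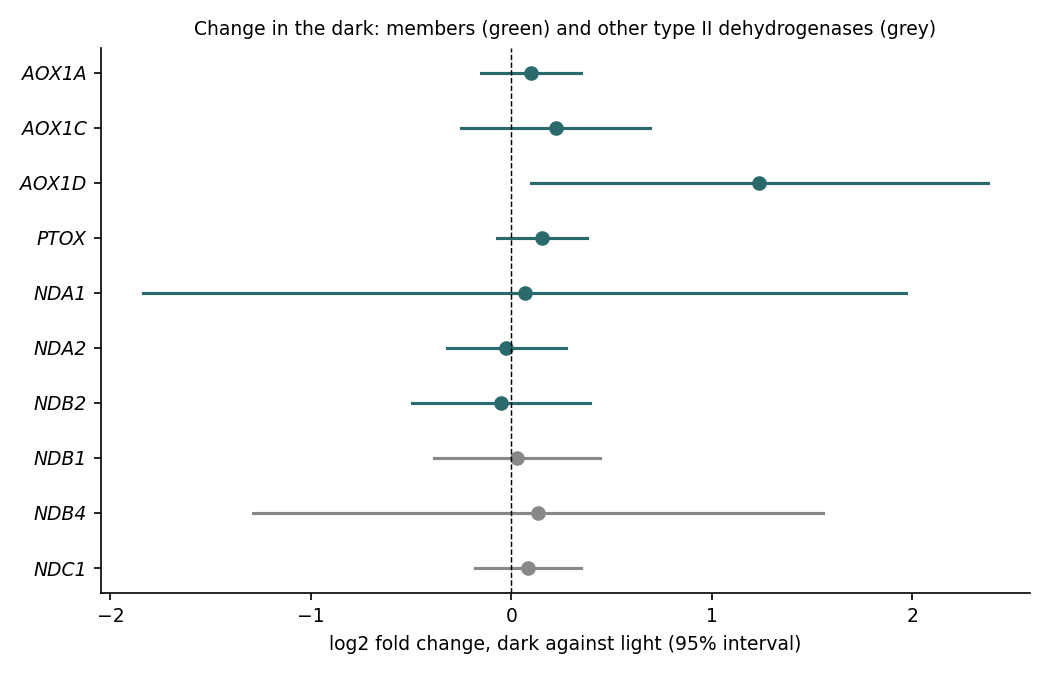
Log2 fold change, dark against light, with 95% intervals for the 7 tested members (green) and 3 other type II dehydrogenases (grey), from the edgeR fit of all 8 libraries. The AOX1D interval runs from 0.10 to 2.38, and the NDA1 interval is the widest, from -1.84 to 1.97.

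The other type II dehydrogenases gave no calls either. Of NDB1, NDB3, NDB4 and NDC1, 3 were tested and 0 were called in either direction by edgeR, with 0 at an unadjusted p under 0.05 and 0 by DESeq2. The shares over all genes were 10.0%, 25.2% and 15.8%. NDB1, an external enzyme, averaged 18.6 ± 4.40 CPM in the light and 19.0 ± 2.39 CPM in the dark, and NDC1, found in mitochondria and plastids, averaged 12.1 ± 1.20 and 12.8 ± 0.955 CPM. NDB4 held 27.3, 32.2, 13.4 and 7.36 CPM in light libraries 1 to 4 and 13.8, 51.3, 13.1 and 10.1 CPM in dark libraries 1 to 4. As for NDA1, dark library 2 was the highest and light library 4 the lowest. Over the 8 libraries NDB4 and NDA1 had a Pearson correlation of log2(CPM + 0.5) of 0.95. On a different scale, edgeR's log2 CPM with a prior count of 2, as many as 274 genes had one over 0.9 with NDA1. NDB3 had 6 counts in the light and 2 in the dark.

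Ranked by level per kilobase of exon, AOX1A came first in both conditions. In the light it was followed by PTOX at 12.7, AOX1C at 10.8, AOX1D at 8.64, NDB2 at 7.53 and NDA2 at 6.95 CPM per kilobase. NDA1, AOX1B and AOX2 came last, at 0.423, 0.153 and 0.0826. Between neighbours in that order, the libraries did not overlap only from AOX1A to PTOX and from NDA2 to NDA1. In the dark, AOX1D took second place at 20.3 CPM per kilobase but overlapped PTOX at 14.1 and AOX1C at 12.6. NDB2 and NDA2 followed at 7.25 and 6.83, and AOX1B, NDA1 and AOX2 stood at 0.605, 0.451 and 0.0307. The members thus fell into AOX1A alone, a middle group of 5 genes, and 3 genes of low level, of which NDA1 was above 3 counts in all 8 libraries.

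The 5′ ends of the members were searched for a sequence that ANAC013 and ANAC017, regulators of mitochondrial stress genes, are known to bind in Arabidopsis. The mitochondrial dysfunction motif was written as CTTG, 5 free bases and CAAG or CACG, on either strand, in a window of 250 bases before to 50 bases after each annotated start. It was found in 1.43% of 27636 promoters and in 4 of the 9 members. The motif was chosen for its known place in mitochondrial stress genes, and AOX1A and AOX1B are tandem neighbours. The shares are therefore a description, and their difference was not tested. The matches are shown with 8 flanking bases, in the direction of the gene, and the motif in capitals. They lie at chr3:7906510-7906538 and chr3:7906537-7906565 for the first and second AOX1A match, chr3:7903971-7903999 for AOX1B, chr1:2204026-2204054 for NDA1 and chr4:2572340-2572368 for NDB2, on the forward strand of TAIR10.1.
AOX1A first match: atctagctCTTGGCGACCACGcaagtatc
AOX1A second match: tcttccatCTTGCTCTCCAAGaaaaatct
AOX1B: tgtcttttCGTGTGCTACAAGtcttttag
NDA1: tgtcgtttCTTGCGCATCAAGttctgctg
NDB2: cgatctggCTTGGCCACCAAGattgtttg
The form with CAAG reads the same on both strands, so its matches have no direction. Of the matches with CACG, the first of AOX1A is on the strand of the gene and that of AOX1B on the opposite strand. None of AOX1C, AOX1D, AOX2, PTOX and NDA2 held these letters in the window. The G-box CACGTG was found in AOX2 and in 7.62% of promoters. The W-box TTGACC or TTGACT was found in 6 members and in 32.3% of promoters. The evening element was found in 0 members and 2.81% of promoters. A match describes the letters and says nothing of binding.

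Levels of the members were followed across the 8 libraries by their correlation with other genes. This is a description only, since the libraries differ in growth condition and in sequencing depth. The genes most like AOX1A were UBA1A (Pearson r of log2 CPM 0.99), AT1G76405 (0.97), MBF1B (0.97), AT1G22110 (0.96) and HSP21 (0.96). Of all genes kept by the filter, 35 had a correlation over 0.9. The genes most like NDA1, chosen after its values were seen, were AT5G19110 (0.99), AT3G27360 (0.99) and AT1G01100 (0.98), with 274 genes over 0.9. For AOX1D, also chosen afterwards, LBD4 (0.99) and AT4G13820 (0.97) came first, with 172 genes over 0.9. The 14 mitochondrial stress genes were compared on log2(CPM + 0.5) instead. They had correlations of both signs with AOX1D, from -0.81 (UPOX) and -0.75 (ANAC013) to 0.87 (ANAC017) and 0.89 (UGT74E2). UGT74E2 was seen almost only in dark libraries 3 and 4, at 0.596 and 0.530 CPM. With NDA1 they ran from -0.91 (CDKE1) and -0.72 (ANAC017) to 0.91 (At12Cys-2) and 0.92 (DIC3).

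Genes of the mitochondrial stress response gave 0 calls in either direction among 12 of 14 tested, with 1 at an unadjusted p under 0.05 and 0 by DESeq2. Over all genes these shares were 10.0%, 25.2% and 15.8%. With the 4 libraries paired with chromatin digestion, 2 were called higher and 1 lower, in a fit that called 27.8% of 19365 genes. Their median log2 fold change was -0.09, against 0.0039 over all genes. OM66, an outer membrane protein gene used as a marker of this response, held 59.3 ± 40.0 CPM in the light and 85.7 ± 25.4 CPM in the dark (log2 fold change 0.53, edgeR adjusted p = 0.549). UPOX held 17.8 ± 6.11 and 13.0 ± 3.41 CPM (adjusted p = 0.376). ANAC013 stood at 43.8 ± 5.90 and 39.2 ± 6.98 CPM and ANAC017 at 86.5 ± 11.7 and 98.5 ± 8.51 CPM, with adjusted p of 0.565 and 0.352. Spread between libraries was wide for OM66, 5.24-fold over the 8 libraries, and narrow for ANAC017, 1.36-fold.

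Genes of the phosphorylating route were examined beside the alternative one. Of 21 genes of cytochrome c and complexes III and IV, 0 were called by edgeR (2 at an unadjusted p under 0.05, 1 by DESeq2, the oxidase subunit gene COX5c-2), with a median log2 fold change of 0.02. Over all genes the shares were 10.0% by edgeR, 25.2% at an unadjusted p under 0.05 and 15.8% by DESeq2. COX5c-2 had an edgeR adjusted p of 0.0515, and its light and dark libraries did not overlap in CPM. The 10 complex I, 9 complex II and 6 ATP synthase genes also gave 0 calls in the edgeR fit (0, 1 and 0 at an unadjusted p under 0.05) and by DESeq2. The cytochrome c genes CYTC-1 and CYTC-2 stood at 161 ± 12.6 and 42.5 ± 8.73 CPM in the light and 153 ± 4.43 and 42.2 ± 13.6 CPM in the dark. Both uncoupling protein genes missed the threshold, UCP2 with a log2 fold change of -0.35 and an edgeR adjusted p of 0.0888. Over the alternatives the number called higher ran from 0 to 1 for the 21 genes and for the ATP synthase genes. UCP2 was called lower in some of the alternatives.

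Low-oxygen genes and clock genes did include calls in the same libraries, where 10.0% of all genes were called. Of 12 low-oxygen genes, SUS1 (sucrose synthase) was higher in the dark (log2 fold change 0.86, SE 0.22, edgeR adjusted p = 0.0459) and PDC2 (pyruvate decarboxylase) lower (-1.61, SE 0.20, adjusted p = 0.0020). The median log2 fold change of the 12 was 0.79, against 0.0039 over all genes. Of the 12, 6 were at an unadjusted p under 0.05, against 25.2% of all genes. Among the low-oxygen genes that missed the threshold, the haemoglobin gene HB1 had a log2 fold change of 2.57 (edgeR adjusted p = 0.0742). The sucrose synthase gene SUS4 had one of 1.50 (edgeR adjusted p = 0.0905). The number called higher ran from 0 to 5 on leaving out a library and from 0 to 6 under the other alternatives. The SUS1 call was lost without light library 1, 2 or 3 and without dark library 1, 3 or 4, and also with library totals only or a filter of 1 CPM in 4 libraries. The summed level of the list was 413 to 613 CPM in the light and 422 to 1107 CPM in the dark, highest in dark library 1. Of 3 clock genes, LHY was higher in the dark (log2 fold change 1.36, SE 0.23, edgeR adjusted p = 0.0075), while CCA1 and TOC1 had log2 fold changes of 0.26 and -0.13 with adjusted p of 0.860 and 0.685. Over all genes the smallest difference called had a log2 size of 0.25, whereas HB1, SUS4 and AOX1D, with larger ones, were not called.

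**Figure D4:**
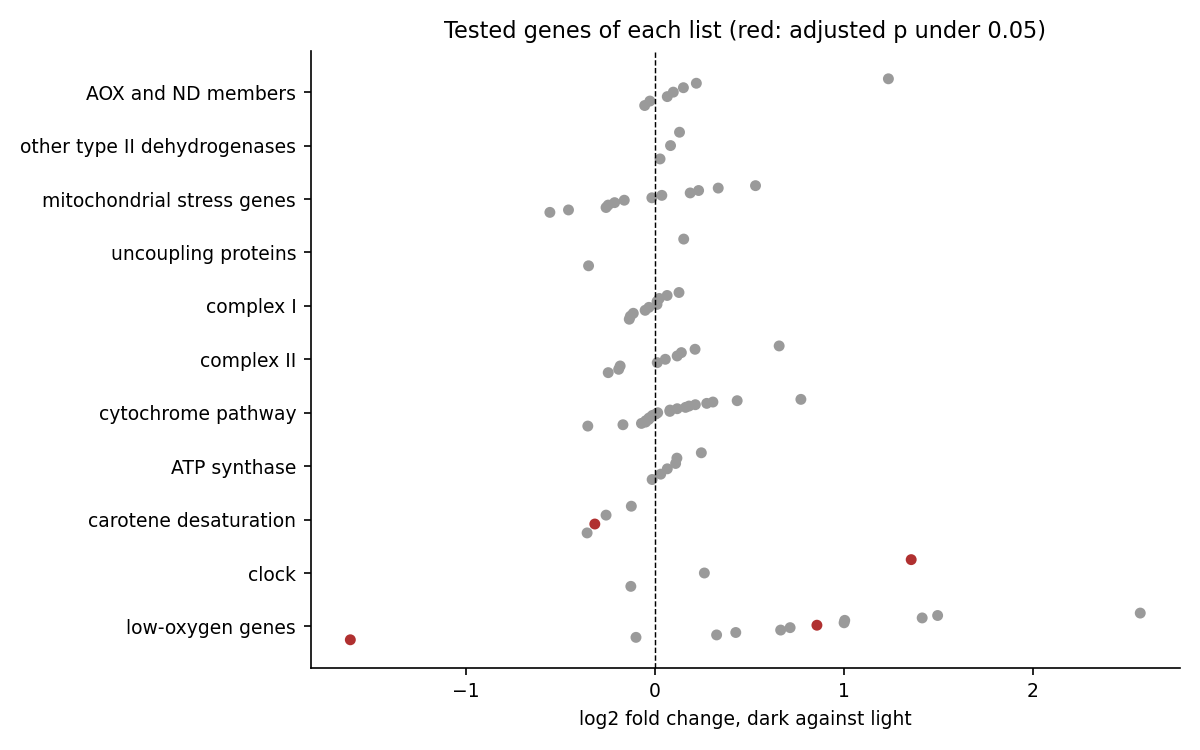
Log2 fold change, dark against light, of every tested gene of each list, with red points for an edgeR adjusted p under 0.05 over all 19129 genes. The 7 tested members and the mitochondrial lists are grey throughout, and the 4 red points are ZDS, LHY, SUS1 and PDC2.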

How the data were processed

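RNA-seq of 8 libraries was analysed, and the 8 chromatin (MNase-seq) samples were left out. The authors mapped 50 bp paired-end reads to TAIR10 with TopHat2 and the Araport11 annotation, and deposited HTSeq counts per gene without normalization or pooling. Versions, counting mode and use of strand are not given in the sources used here. A second table holds the authors' own comparison and was not used.

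Libraries were assigned to light or dark by the labels. The test was edgeR 4.0.16 under R 4.3.3 on the deposited counts (TMM, filterByExpr with minimum count 10 and minimum total 15, robust quasi-likelihood fit, Benjamini-Hochberg adjustment over 19129 genes, threshold 0.05). CPM are TMM-scaled. Permutation tests were exact and two-sided on log2 of CPM plus 0.5. DESeq2 1.42.0 was an alternative, beside other normalizations, filters, a likelihood ratio test, a replicate block, the 4 libraries paired with MNase-seq and leaving out each library. Alternatives for the summed AOX level were chosen after seeing the data. The edgeR fit was tested on simulated data. Levels per kilobase use merged exons.

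Gene models and sequence came from RefSeq's TAIR10.1 assembly, which held 27636 of the 28598 identifiers. Named were all members, fixed genes of each list, up to 3 called genes of a list in each direction, and the 5 genes most correlated with AOX1A; COX5c-2, PDS, UCP2, UGT74E2, CDKE1, HB1, SUS4, MYB60, COBL9, XCP1, FAMA, EXPA7, APL, DIC3, At12Cys-2, and the genes most like AOX1D and NDA1 were named outside this rule, after their values were seen. The members and lists were chosen with earlier results of these data known. The mean chi-square per gene between counts of libraries of one condition was 19.7 to 110, so all were kept as separate libraries. Whether any share a culture cannot be told from this. Floors of 3 counts cover counting error only. Python 3.11.15 was used with scipy 1.17.1.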

Additional observations from a re-analysis of the deposited data

Results flagged for a closer look

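Among 72 groups of 4 libraries searched, 4 held a library far from the other 3, against 3.6 by chance at 1 in 20. The 3.6 assumes independent groups, which these are not, since the NDA1 share is formed from the NDA1 level. NDA1 stood at 2.77 CPM in dark library 2, against 0.286 to 0.565 CPM in the other dark libraries. Its share of the summed NDA1, NDA2 and NDB2 level, per kilobase of exon, was 7.93% there and 0.799% to 1.97% in the others. NDB4, another type II dehydrogenase gene, stood at 51.3 CPM in the same library, against 10.1 to 13.8 CPM in the other dark libraries. NDB3 was at 0.0635 CPM in dark library 1, from 2 counts, and at 0 in the other dark libraries. A group with counts in a single library meets the rule whatever the value.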

How the results depend on the processing

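No member was called under any alternative except the 4 libraries paired with MNase-seq, where 2 were called (AOX1C, log2 fold change 0.43, and AOX1D, 2.35) beside 5387 genes in all, and where AOX1A was at -0.011 and NDA1 at -1.21. DESeq2 called 3356 genes, and leaving out each library gave 962 to 2873, against 1912. NDA1 was at -0.0027 with library totals only and was removed by the filter of 1 CPM in 4 libraries.

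The replicate numbers were not shown to pair the libraries, since deviations of same-numbered libraries correlated at -0.14, 0.58, -0.025 and 0.22. The fit with a replicate block called 2221 genes and 0 members, and gave NDA1 -0.27.

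Leaving out each library gave log2 fold changes of -1.28 to 0.38 for NDA1, -0.11 to 0.045 for NDA2, -0.15 to 0.087 for NDB2, 0.04 to 0.17 for AOX1A, 0.10 to 0.39 for AOX1C, 0.95 to 1.51 for AOX1D and 0.09 to 0.19 for PTOX. The differences of mean log2(CPM + 0.5) ranged from -0.60 to 0.084 for NDA1, -0.098 to 0.041 for NDA2 and -0.16 to 0.064 for NDB2, and the log2 ratios from -0.31 to 0.0089 for NDB2 to AOX1A and from -0.63 to 0.18 for NDA1 to NDA2. The causes were not tested.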
